A study of Mus musculus with 18 samples.

Results

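The 10 genes Hmox1, Nqo1, Gclc, Gclm, Srxn1, Txnrd1, Gsr, Osgin1, Cbr3 and Akr1b10, all targets of the antioxidant programme driven by the transcription factor NRF2 (gene name Nfe2l2), were described on 18 mouse bead arrays. They were chosen by name, as targets relevant to an alkylating compound, and every probe annotated to 1 of the 10 symbols was taken. Of the 45281 probes, 14 carried such a symbol. They covered 9 of the 10 genes, since no probe was annotated to Gsr (glutathione reductase), and 13 of the 14 passed the filter on dim probes. The 9 genes were tested among 11406.

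The samples were 6 groups of 3 replicates. All came from colon tumours of C57Bl/6 mice aged 17 weeks that carried Fapbl-Cre and Apc2lox14/+ (named FAK in the labels), in which Cre, under a promoter that the labels name Fapbl, acts on floxed Apc. Per the labels, tumour cells bearing CD110 were taken with antibody-coupled magnetic MicroBeads from mice numbered 1, 5 and 7 (the mouse labels of the plots), and all groups were kept with Dox, without an arm lacking it. For each mouse number, treated cells received 1 µM U73122 and untreated cells none, both for 24 h. Whether the replicates were separate cultures is not in the labels. The p-values within single mouse numbers and for levels thus cover the variation among these arrays alone, which can be technical. Those of treatment over the 3 mouse numbers cover how the treatment difference varied between mouse numbers. Each mouse number stands for 1 animal in the labels.

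NRF2 is held low in resting cells by KEAP1, a cysteine-rich adaptor that hands it to a ubiquitin ligase. When reactive chemicals modify the cysteines of KEAP1, NRF2 accumulates, pairs with small MAF proteins and binds antioxidant response elements near genes for glutathione synthesis, thioredoxin recycling, quinone and carbonyl reduction and haem breakdown. In the intestine this programme protects epithelium from electrophiles, and its target genes are often read as a record of electrophile exposure. U73122 is an aminosteroid sold as a phospholipase C inhibitor, and its maleimide group can react with thiols. The comparison therefore asks whether the target genes differed between treated and untreated cells.

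The arrays did not all look as labelled. Epcam, which marks epithelial cells, was detected on 0 of 6 arrays of each mouse number, and 7 of 14 colon epithelium markers passed the filter on dim probes. In mouse 7 against mouse 5, 6 of these 7 were higher and 1 lower at an adjusted p under 0.05 (limma), where 80.5% of all genes were called. Krt8 (7.54 on the log2 scale) and Krt18 (6.37) differed most, and Muc2 was lower (-1.35). Of 13 liver markers tested, 13 were detected on every array of mouse 7, with Alb (albumin) between 5.05 and 6.15 and Hpx (haemopexin) between 14.44 and 14.69 on the log2 scale there. Hpx was detected on 0 and 1 of 6 arrays of mice 1 and 5. Acta1, the actin of skeletal muscle, lay between 14.17 and 14.41 in mouse 5, and Ucp1, the uncoupling protein of brown fat, between 12.35 and 13.85 in mouse 1. Acta1 was also high on some arrays of mouse 1, where it ran from 4.93 to 14.42. Xist, made from the inactive X chromosome, was between 9.80 and 10.57 on the treated arrays and untreated replicate 2 of mice 1 and 5, and between 4.42 and 4.98 on their untreated replicates 1 and 3, which carried the Y-linked Eif2s3y instead. Arrays of 1 animal would not differ in this way. In mice 1 and 5, an effect of U73122 on any gene cannot be fully told apart from this difference between arrays. In mouse 7, Xist was detected on 0 of 6 arrays and Eif2s3y on 6 of 6, between 8.14 and 8.50. Results without the untreated arrays that differ are given below for Akr1b10 and Cbr3, and for other genes where the direction or the call changed. In such bulk samples fewer cells of a type and less RNA per cell cannot be told apart.

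Promoter sequences show where the letters of the antioxidant response element lie in these genes. Of the 10 genes, 7 matched the table of RefSeq promoters (mouse build GRCm38.p6), giving 9 windows that run from 250 bases before to 50 after the start of transcription. The core of the element was searched on both strands as TGACNNNGC, where N is any base. It was found in 3 of 9 windows, those of Gclm, Srxn1 and 1 of the Txnrd1 starts, against 12.4% of 32851 promoter windows of the same length. They are shown because they hold the core, which stands in capitals and in each case reads on the opposite strand.
Gclm promoter, chr3:122245307-122245606, + strand: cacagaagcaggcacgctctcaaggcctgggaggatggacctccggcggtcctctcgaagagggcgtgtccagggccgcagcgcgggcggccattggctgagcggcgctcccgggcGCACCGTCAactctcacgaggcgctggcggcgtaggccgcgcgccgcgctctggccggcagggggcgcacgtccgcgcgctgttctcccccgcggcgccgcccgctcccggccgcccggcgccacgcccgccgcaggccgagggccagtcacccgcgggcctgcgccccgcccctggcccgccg
Srxn1 promoter, chr2:152105274-152105573, + strand: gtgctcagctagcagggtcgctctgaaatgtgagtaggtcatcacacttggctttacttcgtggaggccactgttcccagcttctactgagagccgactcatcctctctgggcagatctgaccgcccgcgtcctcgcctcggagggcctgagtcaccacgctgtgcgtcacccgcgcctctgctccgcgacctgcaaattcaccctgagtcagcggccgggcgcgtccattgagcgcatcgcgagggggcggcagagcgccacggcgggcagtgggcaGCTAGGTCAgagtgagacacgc
Txnrd1 promoter, chr10:82858956-82859255, + strand: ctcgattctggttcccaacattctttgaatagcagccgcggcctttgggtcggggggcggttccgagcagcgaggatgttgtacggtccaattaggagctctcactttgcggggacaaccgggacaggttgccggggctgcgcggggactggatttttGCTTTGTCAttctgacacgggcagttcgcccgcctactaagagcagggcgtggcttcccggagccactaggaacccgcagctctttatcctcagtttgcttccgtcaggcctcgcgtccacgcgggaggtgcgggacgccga
The core began 134 bases before the start in Gclm, 92 before in Txnrd1 and 28 after it in Srxn1. The AP-1 letters TGACTCA were in 2 of 9 windows, with 2 matches in Srxn1 and 1 in Osgin1, against 5.2% of all windows. They did not overlap the core as searched, which allowed only C after TGA. Forms of the element with another base there were not counted. With G there, TGAGTCAGC spans 1 AP-1 match of Srxn1 and, on the opposite strand, that of Osgin1. A core followed by A was found in 1 of 9 windows, that of Txnrd1, against 3.04% of all. These matches describe the letters in the windows and do not show binding.

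Treatment with U73122 was followed by no change of the antioxidant target genes that passed the test. Over the 3 mouse numbers, 0 of 9 were called by limma at an adjusted p under 0.05, as were 0% of all 11406 genes. In single mouse numbers, 0 of 9 were called in mouse 1, against 0.885% of all genes, 0 of 9 in mouse 5, against 0.0701%, and 0 of 9 in mouse 7, against 0.57%. Without adjustment, 2 of 9 had p under 0.05 over the 3 mouse numbers (Cbr3 and Akr1b10, both higher with U73122), where 5.39% of all genes did. The unadjusted counts in single mouse numbers were 1 of 9 in mouse 1 (Cbr3, against 11.5% of genes), 0 of 9 in mouse 5 (against 11.3%) and 0 of 9 in mouse 7 (against 10.3%). The treatment difference did not pass the test of a difference between mouse numbers for any of the 9, against 0.377% of all genes, with adjusted p from 0.518 for Srxn1 upward (limma moderated F test).

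The median treatment difference of the 9 genes on the log2 scale was 0.13 over the 3 mouse numbers, 0.04 in mouse 1, -0.03 in mouse 5 and 0.27 in mouse 7, where the median of all genes tested was 0.00, -0.01, 0.01 and 0.00. Higher means with U73122 were seen for 6 of 9 genes over the 3 mouse numbers, for 5 in mouse 1, 4 in mouse 5 and 8 in mouse 7. Treated and untreated arrays did not overlap for 2 of 9 genes in mouse 1 (Nqo1 and Srxn1, both lower with U73122), where 15.5% of all genes did not overlap. The counts were 0 of 9 in mouse 5, against 12.5% of genes, and 1 of 9 in mouse 7 (Akr1b10, higher with U73122), against 19.7%. The share of mouse 1 is above that of all genes by 1 gene or less, and those of mice 5 and 7 are below it.

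**Figure D1:**
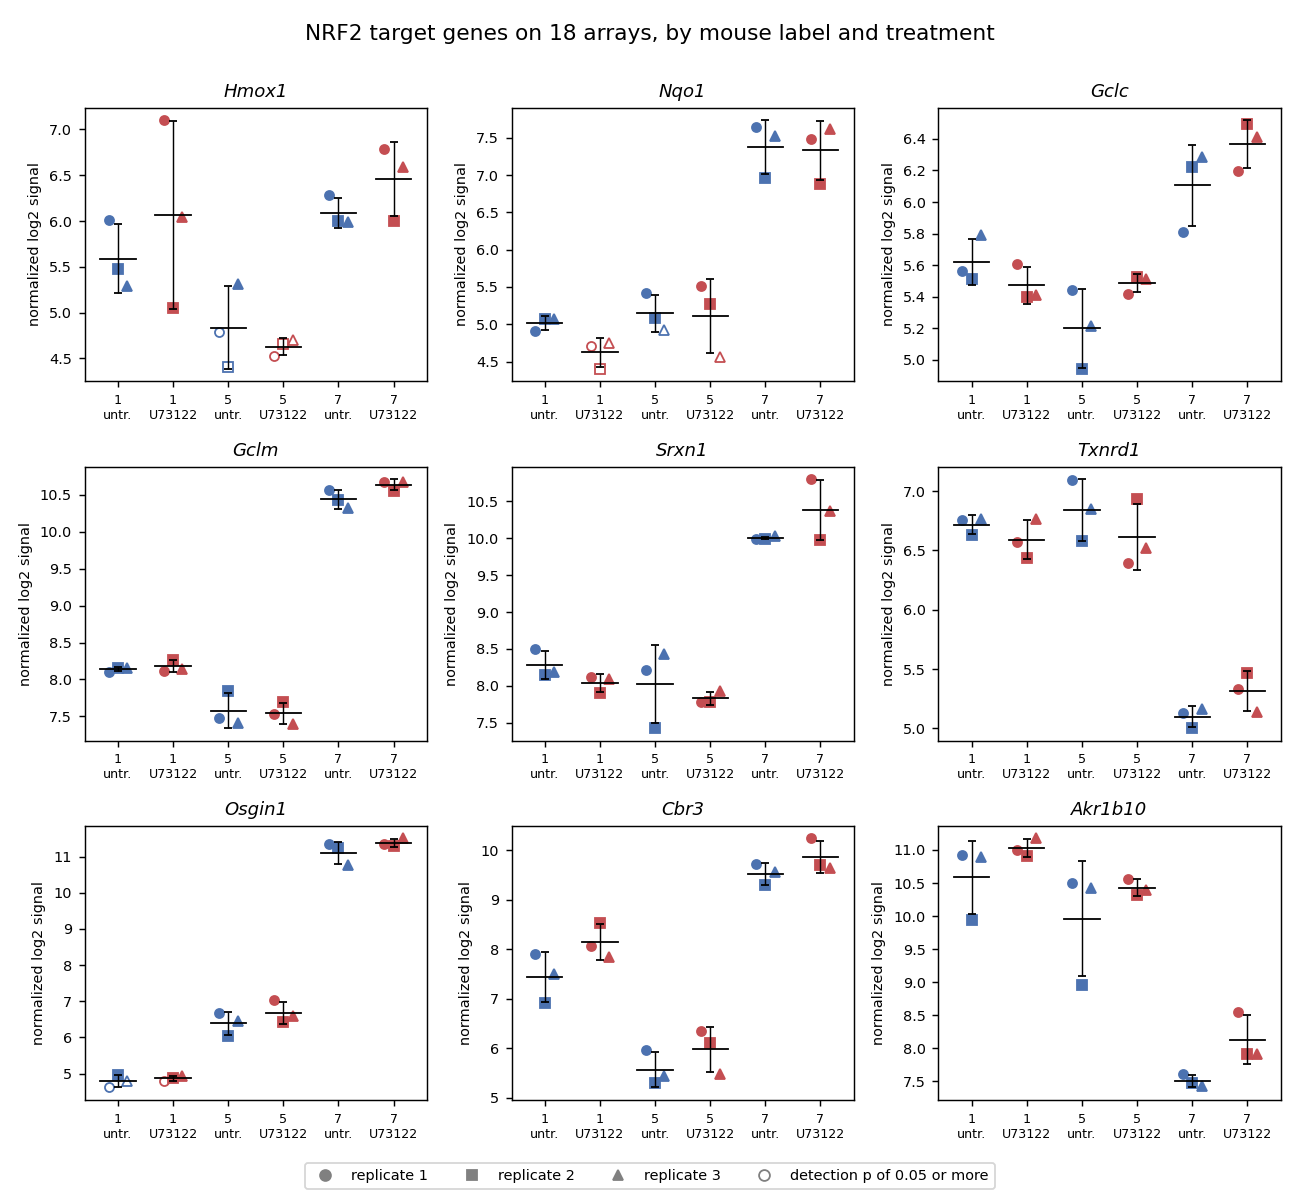
Normalized log2 signal of the 9 measured NRF2 target genes on each array, 3 arrays for each mouse number without (blue) and with (red) U73122; lines and bars are the mean and SD, and open symbols mark arrays with a detection p of 0.05 or more. Each panel has its own vertical axis, and mouse 7 stands apart from mice 1 and 5 in most panels, highest for Osgin1 and lowest for Txnrd1 and Akr1b10.

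Hmox1 encodes haem oxygenase 1, which opens the haem ring and is a classic target of NRF2. In mouse 1 its log2 signal was 6.01, 5.47 and 5.29 untreated and 7.10, 5.05 and 6.04 treated. In mouse 5 it was 4.79, 4.41 and 5.31 untreated and 4.53, 4.66 and 4.70 treated, and was detected on 1 of 6 arrays. In mouse 7 it was 6.28, 6.00 and 5.99 untreated and 6.79, 6.00 and 6.59 treated. Treated and untreated arrays overlapped in every mouse number, and the highest of all 18 values was treated replicate 1 of mouse 1. The treatment difference was 0.47 ± 0.37 in mouse 1, -0.21 ± 0.37 in mouse 5 and 0.37 ± 0.37 in mouse 7 (log2, limma SE, n = 3 and 3 arrays, adjusted p 0.710, 0.906 and 0.837). Over the 3 mouse numbers it was 0.21 ± 0.16, with a 95% interval from -0.19 to 0.61 and an adjusted p of 0.834. Without treated replicate 1 of mouse 1 the difference there was -0.05 (adjusted p 0.999).

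Beside the Hmox1 values of mouse 7, macrophage markers were higher on the treated arrays. The mean log2 level of the 13 markers tested was 9.25 to 9.85 treated and 8.58 to 8.70 untreated, and 13 of 13 were detected in both groups. At an adjusted p under 0.05, 3 of 13 rose, where 0.57% of all genes were called. Of 6 erythroid markers tested, 2 rose in mouse 7, both of them globins (Hbb-bs and Hbb-bt), against the same 0.57% of all genes. The mean level of the 6 was 10.05 to 10.33 treated and 9.80 to 9.92 untreated. Treated means were higher for 4 of 6, and lower for Klf1 (-0.47) and Alas2 (-0.18), which did not pass. The part of these cell types in the Hmox1, Srxn1 and Akr1b10 values of mouse 7 was not tested.

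Nqo1 encodes the quinone reductase that reduces quinones without passing through a semiquinone. Its log2 signal in mouse 1 was 4.91, 5.07 and 5.07 untreated and 4.71, 4.40 and 4.75 treated. The probe was detected on 3 of 3 untreated and 0 of 3 treated arrays there, so the treated level is only a bound, at least 1.14-fold lower, and the fitted difference of -0.40 ± 0.25 did not pass the test (adjusted p 0.614). In mouse 7 the values were 7.65, 6.97 and 7.52 untreated and 7.49, 6.89 and 7.63 treated. Mouse 5 gave 5.42, 5.09 and 4.92 untreated and 5.51, 5.27 and 4.56 treated. The groups of mice 5 and 7 overlapped almost fully, with differences of -0.03 ± 0.25 and -0.05 ± 0.25. A further Nqo1 probe was detected on 1 of 18 arrays and was left out.

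Gclc and Gclm encode the catalytic and modifier subunits of glutamate-cysteine ligase, the first enzyme of glutathione synthesis. Gclm had the narrowest range of array values about the mouse means of the 9 genes, 0.51 on the log2 scale. Its log2 signal was between 8.10 and 8.16 untreated and between 8.12 and 8.27 treated in mouse 1, between 7.40 and 7.85 untreated and between 7.39 and 7.69 treated in mouse 5. In mouse 7 it was 10.57, 10.43 and 10.32 untreated and 10.68, 10.55 and 10.68 treated. The ranges overlapped in all 3 mouse numbers. Over them the difference was 0.07 ± 0.10 (95% interval -0.18 to 0.31, adjusted p 0.896). Gclc gave 0.13 ± 0.14 (95% interval -0.20 to 0.47, adjusted p 0.853), with untreated ranges of 5.51 to 5.79, 4.94 to 5.44 and 5.81 to 6.28 in mice 1, 5 and 7 and treated ranges of 5.40 to 5.61, 5.42 to 5.53 and 6.20 to 6.49. The Gclc difference was -0.15 ± 0.17 in mouse 1 and 0.29 ± 0.17 and 0.26 ± 0.17 in mice 5 and 7, and the difference between mouse numbers did not pass the test (adjusted p 0.561).

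Srxn1 encodes sulfiredoxin, which restores over-oxidised peroxiredoxins, and Txnrd1 the cytosolic thioredoxin reductase. The brightest Srxn1 probe, ILMN_2677772, read 8.50, 8.15 and 8.19 untreated and 8.12, 7.90 and 8.10 treated in mouse 1. In mouse 5 it read 8.21, 7.42 and 8.43 untreated and 7.78, 7.77 and 7.92 treated, and in mouse 7 from 9.99 to 10.03 untreated and 10.80, 9.98 and 10.37 treated. All treated arrays of mouse 1 lay below the untreated ones, while in mouse 7 replicates 1 and 3 of the treated arrays lay above them. The differences were -0.24 ± 0.22 in mouse 1, -0.20 ± 0.22 in mouse 5 and 0.38 ± 0.22 in mouse 7 (adjusted p 0.756, 0.817 and 0.603). They cancelled to -0.02 ± 0.15 over the 3 mouse numbers, and the sign of that value turned to 0.02 when arrays were centred on their medians.

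The 3 Srxn1 probes disagreed on 1 array. On untreated replicate 2 of mouse 5 the brightest probe gave the lowest signal of its group, 7.42 against 8.21 and 8.43. On the same array ILMN_2667346 gave the highest, 9.04 against 7.55 and 7.48, and so did ILMN_1229994, 7.72 against 5.33 and 6.17. The treated arrays of mouse 5 were at 7.07, 7.07 and 7.42 by ILMN_2667346 and at 5.38, 5.16 and 6.04 by ILMN_1229994. The treatment difference in mouse 5 was then -0.84 ± 0.28 and -0.89 ± 0.41 by these probes, with adjusted p of 0.258 and 0.419 in the limma fit of every probe. The plot of the 3 probes shows the same array at the bottom of its group in 1 panel and at the top in the others.

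**Figure D2:**
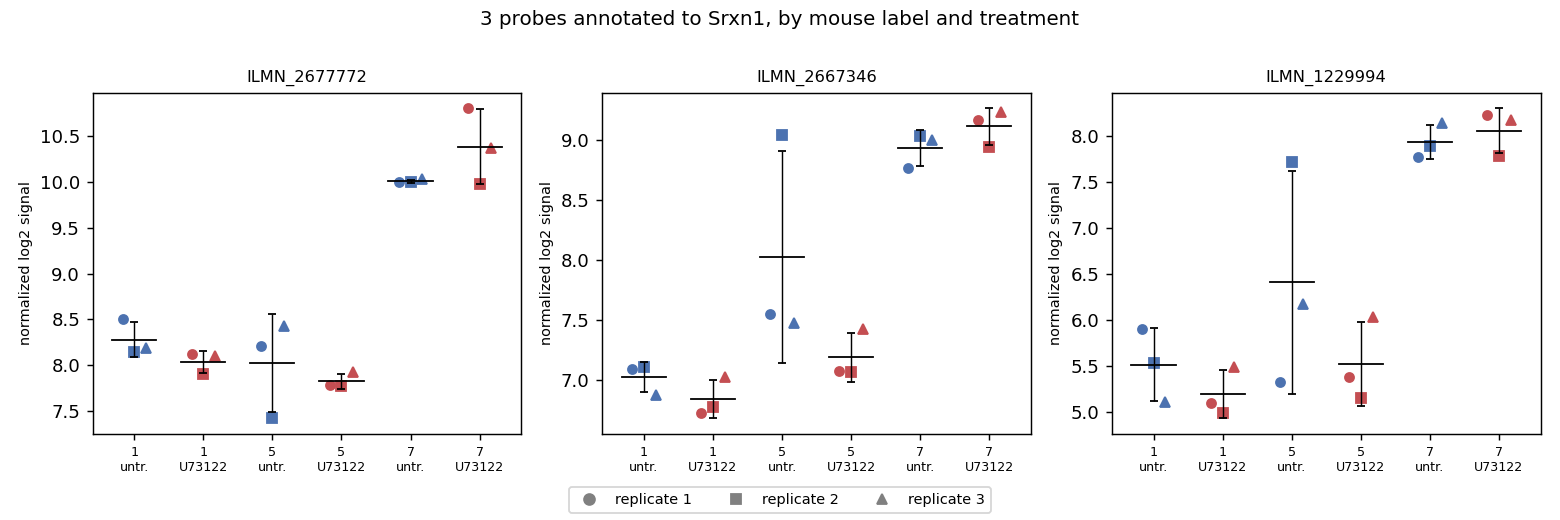
Normalized log2 signal of the 3 Srxn1 probes on each array (3 per group; mean and SD as lines; blue untreated, red U73122; each panel with its own axis). The square of the untreated group of mouse 5 reads 7.42 on the left and 9.04 and 7.72 in the other panels, while mouse 7 is high in all 3.

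Txnrd1 read 6.76, 6.63 and 6.77 untreated and 6.57, 6.43 and 6.76 treated in mouse 1. It read 7.10, 6.58 and 6.85 untreated and 6.39, 6.93 and 6.52 treated in mouse 5, and 5.13, 5.00 and 5.16 untreated and 5.33, 5.47 and 5.14 treated in mouse 7. The groups overlapped in each mouse number. The differences were -0.13 ± 0.17, -0.23 ± 0.17 and 0.21 ± 0.17 in mice 1, 5 and 7, and -0.05 ± 0.14 over the 3 (adjusted p 0.949). Like that of Srxn1, the value over the 3 mouse numbers changed sign with median centring, to 0.03.

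Osgin1 is named for a growth inhibitor induced by oxidative stress, a role known from human cells. It was near background in mouse 1, with 4.62, 4.96 and 4.81 untreated and 4.79, 4.88 and 4.92 treated, and was detected on 3 of 6 arrays. It read 6.69, 6.05 and 6.45 untreated and 7.03, 6.44 and 6.58 treated in mouse 5, and 11.34, 11.23 and 10.77 untreated and 11.35, 11.29 and 11.50 treated in mouse 7. The treated mean was the higher one in all 3 mouse numbers, but the arrays overlapped in each. The difference over the 3 was 0.21 ± 0.11, with a 95% interval from -0.06 to 0.48 and an adjusted p of 0.817.

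Cbr3 and Akr1b10 encode a carbonyl reductase and an aldo-keto reductase, enzymes that reduce carbonyl groups with NADPH. These were the members with the smallest unadjusted p over the 3 mouse numbers. The brightest Cbr3 probe read 7.91, 6.91 and 7.51 untreated and 8.07, 8.54 and 7.83 treated in mouse 1. It read 5.97, 5.29 and 5.44 untreated and 6.36, 6.10 and 5.48 treated in mouse 5, and 9.72, 9.29 and 9.55 untreated and 10.23, 9.69 and 9.65 treated in mouse 7. Untreated replicate 2 was the lowest array of each mouse number, and treated and untreated arrays overlapped in each. The difference was 0.70 ± 0.28 in mouse 1, 0.41 ± 0.28 in mouse 5 and 0.34 ± 0.28 in mouse 7 (adjusted p 0.331, 0.642 and 0.777). Over the 3 mouse numbers Cbr3 was 0.49 ± 0.12 higher with U73122, with an unadjusted p of 0.00675 and an adjusted p of 0.817 by limma. The other Cbr3 probe gave 0.85 ± 0.24 in mouse 1 and 0.32 ± 0.24 in mouse 7 (adjusted p 0.118 and 0.738). It was detected on 0 of 6 arrays of mouse 5, where it gave -0.22 ± 0.24. Over the 3 mouse numbers this probe gave 0.32 ± 0.21, with an unadjusted p of 0.173 by limma, so the small unadjusted p of Cbr3 depends on the probe.

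In mouse 1, where the Cbr3 difference was largest, skeletal muscle markers differed far more between the same arrays. Treated arrays had mean log2 levels of 12.24, 12.35 and 10.52, and untreated arrays 5.02, 10.09 and 7.11. At an adjusted p under 0.05, 11 of 14 markers rose, where 0.885% of all genes were called. Of the 14, all were detected on the 3 treated arrays and 5 on the 3 untreated ones. The part of muscle RNA in the Cbr3, Nqo1 and Srxn1 values of mouse 1 was not tested.

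Akr1b10, whose human counterpart reduces aldehydes and retinal, had treatment differences of like size in the 3 mouse numbers, and those of mice 1 and 5 leaned on 1 untreated array each. Its brightest probe read 10.92, 9.95 and 10.89 untreated in mouse 1, with the 3 treated arrays between 10.91 and 11.17. It read 10.50, 8.96 and 10.42 untreated and 10.57, 10.32 and 10.40 treated in mouse 5. In both, untreated replicate 2 was the lowest of 6 arrays by a wide gap, and the other 5 lay close together. In mouse 7 the gene read 7.61, 7.47 and 7.43 untreated and 8.56, 7.92 and 7.91 treated, so every treated array was above every untreated one there. The differences were 0.44 ± 0.32, 0.47 ± 0.32 and 0.62 ± 0.32 in mice 1, 5 and 7 (adjusted p 0.680, 0.651 and 0.539). Over the 3 mouse numbers the difference was 0.51 ± 0.09, with an unadjusted p of 0.00142 and an adjusted p of 0.817 by limma. The other Akr1b10 probe gave 0.31 ± 0.31, 0.47 ± 0.31 and 0.25 ± 0.31.

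The Akr1b10 result changed with the untreated arrays that entered it. Without untreated replicate 2 of mice 1 and 5, a choice made after their values were seen, the difference was 0.12 in mouse 1, -0.03 in mouse 5 and 0.24 over the 3 mouse numbers (adjusted p 0.898, 0.986 and 0.848). With untreated replicates 1 and 3 of mice 1 and 5 left out instead, the arrays whose sex chromosome transcripts differ from the treated ones, only replicate 2 stood for the untreated cells of each. The difference was then 1.08 in mouse 1 and 1.47 in mouse 5 (adjusted p 0.0151 and 0.00166), the lone array being assumed to vary like the other groups. For Cbr3 the first choice gave 0.44 in mouse 1 and 0.35 over the 3 mouse numbers (adjusted p 0.668 and 0.848), and the second gave 1.23 in mouse 1 and 0.75 over the 3 (adjusted p 0.0525 and 0.739).

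Untreated replicate 2 of mice 1 and 5 also stood apart in the genes of the circadian clock. The mean log2 level of 11 clock genes was 8.03 on that array of mouse 1, against 6.97 and 7.23 on the other untreated arrays and 7.00 to 7.07 on the treated ones. In mouse 5 it was 8.34, against 7.37 and 7.53 untreated and 7.34 to 7.43 treated. Nr1d1, a repressor of the clock, read 8.92 in mouse 1 against 5.55 and 6.02 on the other untreated arrays, and 8.77 in mouse 5 against 7.23 and 7.34. Not every clock gene stood apart in both. Per2 read 9.16 in mouse 1 against 9.26 and 9.09, and 8.52 in mouse 5 against 7.07 and 7.21. The part of this difference between arrays in the Akr1b10 and Cbr3 values was not tested.

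**Figure D3:**
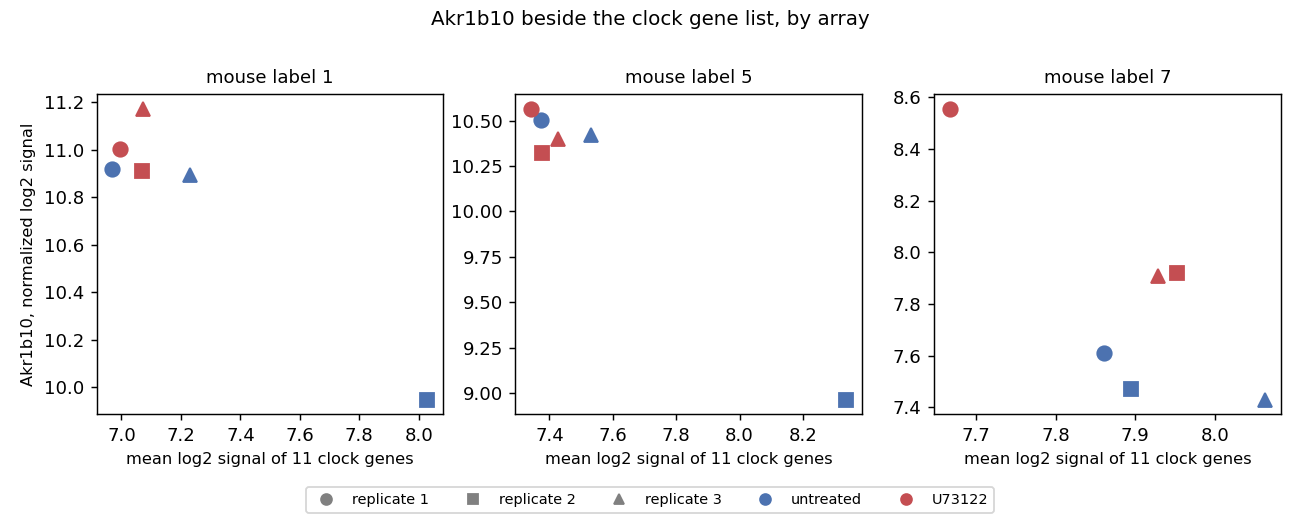
Akr1b10 (vertical, normalized log2 signal) against the mean log2 signal of 11 clock genes (horizontal) on the 6 arrays of each mouse number, blue untreated and red U73122. Untreated replicate 2 (blue square) lies alone at the lower right in mice 1 and 5, at 9.95 and 8.96 for Akr1b10, and among the other arrays in mouse 7.

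**Figure D4:**
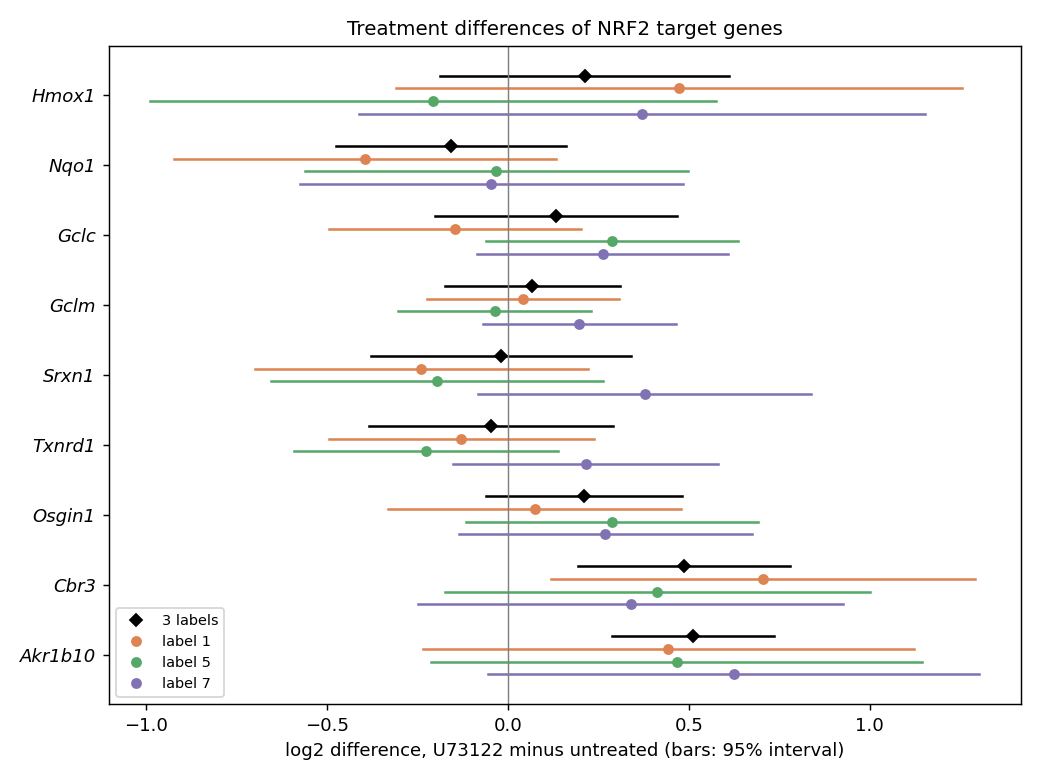
Treatment difference of each NRF2 target gene (U73122 minus untreated, log2) with its 95% interval, over the 3 mouse numbers (black) and in each. Of the intervals over 3 mouse numbers, those of Cbr3 (0.19 to 0.78) and Akr1b10 (0.29 to 0.73) do not reach 0, before adjustment over all genes, and 0 of 9 genes passed the adjusted test.

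The genes whose array values most resembled those of the 4 most variable members were found by Pearson's r over the 18 arrays, after each mouse number's mean was taken off, among 11405 other genes. For Akr1b10 they were Blvra, a biliverdin reductase (r 0.94), Oxct1, which starts ketone body use (0.93), and Ppic, a cyclophilin (0.89). Oxct1 read 12.20, 11.19 and 12.43 on the untreated arrays of mouse 1 and 12.77, 10.80 and 12.69 on those of mouse 5, so it too was lowest on untreated replicate 2. Blvra likewise read 8.51, 7.39 and 8.15 on the untreated arrays of mouse 5. For Cbr3 the 3 genes were Fcrls, Lamc3 and Pi16 (each r 0.84), for Srxn1 Septin2 (0.85), Itgal and Ift88 (both 0.84), and for Hmox1 Ly86 and Ppm1e (both 0.77) and Hpcal1 (0.76). These values share the arrays, the mouse numbers and the treatment groups, and are a description only.

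Most of the antioxidant target genes stood at other levels in mouse 7 than in mice 1 and 5. In mouse 7 against mouse 5, 9 of 9 genes differed at an adjusted p under 0.05, against 80.5% of all genes tested, with 7 higher and Txnrd1 and Akr1b10 lower in mouse 7. In mouse 7 against mouse 1, 8 of 9 differed, against 75.7%, with 6 higher and the same 2 lower, and Hmox1 not past the threshold. In mouse 1 against mouse 5, 5 of 9 differed, against 60.7%. With most genes called, counts near these shares do not set the 9 apart. The median difference of the 9 was 2.23 in mouse 7 against 5, 1.89 in 7 against 1 and 0.24 in 1 against 5 on the log2 scale, where the medians of all genes were -0.02, -0.08 and 0.03. Each number is 1 animal by label. The marker genes above differ between the numbers, and the sex chromosome transcripts between mouse 7 and most arrays of mice 1 and 5. The animal, its sex and the cell content therefore cannot be told apart.

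Osgin1 had the widest span of the 9. It was 6.42 ± 0.14 log2 units higher in mouse 7 than in mouse 1 (85.4-fold, adjusted p 1.48e-17), 4.71 ± 0.14 higher than in mouse 5 (26.1-fold, adjusted p 1.06e-15), and lower in mouse 1 than in mouse 5 by a log2 difference of -1.71 ± 0.14 (adjusted p 4.72e-09). The order was therefore mouse 7, 5 and 1, with every step past the threshold, and the folds against mouse 1 rest on a level near background. Cbr3 ran in the order 7, 1 and 5, with 3.91 ± 0.20 between mice 7 and 5 (15.1-fold), 1.89 ± 0.20 between 7 and 1 and 2.02 ± 0.20 between 1 and 5, all past the threshold. By its other probe it was at least 7.25-fold higher in mouse 7 than in mouse 5 and at least 1.90-fold higher in mouse 1.

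Gclm followed the same order as Cbr3. It was 2.98 ± 0.09 higher in mouse 7 than in mouse 5 (7.90-fold), 2.38 ± 0.09 higher than in mouse 1 (5.21-fold) and 0.60 ± 0.09 higher in mouse 1 than in mouse 5, each past the threshold (adjusted p 1.83e-15, 6.01e-14 and 1.38e-05). Its partner subunit Gclc moved less, with 0.89 ± 0.12 in mouse 7 against 5 and 0.69 ± 0.12 against 1 (adjusted p 1.54e-06 and 3.73e-05), and 0.20 ± 0.12 in mouse 1 against 5, which did not pass (adjusted p 0.143).

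Nqo1 and Srxn1 were high in mouse 7 with mice 1 and 5 not told apart by the test. Nqo1 was 2.23 ± 0.18 higher in mouse 7 than in mouse 5 and 2.54 ± 0.18 higher than in mouse 1, and the difference of mouse 1 against 5 was -0.31 ± 0.18 (95% interval -0.68 to 0.06, adjusted p 0.143). The last difference passed without treated replicate 3 of mouse 5 (-0.45, adjusted p 0.0265). The probe was detected on 3 of 6 arrays of mouse 1 and 4 of 6 of mouse 5. Srxn1 was 2.27 ± 0.15 and 2.03 ± 0.15 higher in mouse 7 than in mice 5 and 1, with 0.24 ± 0.15 in mouse 1 against 5 (adjusted p 0.200). The last value depends on the probe, being -0.67 ± 0.20 by ILMN_2667346 (adjusted p 0.00688 in the fit of every probe) and -0.61 ± 0.29 by ILMN_1229994 (adjusted p 0.0766). By the brightest probe it passed, at 0.47 (adjusted p 0.0264), without untreated replicates 1 and 3 of mice 1 and 5. Hmox1 was 1.54 ± 0.26 higher in mouse 7 and 1.09 ± 0.26 higher in mouse 1 than in mouse 5 (adjusted p 3.43e-05 and 0.00148), and mice 7 and 1 differed by 0.45 ± 0.26 (95% interval -0.10 to 1.00, adjusted p 0.130). Without treated replicate 1 of mouse 1, the last difference was 0.71 (adjusted p 0.00618). Hmox1 was detected on 1 of 6 arrays of mouse 5, so its differences from mouse 5 rest on a level near background. With its value on each array of mouse 5 raised to at least that array's lowest signal among detected probes, its mean there was 4.91, against 5.83 in mouse 1 and 6.27 in mouse 7.

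Txnrd1 and Akr1b10 ran the other way. Txnrd1 differed by -1.52 ± 0.12 in mouse 7 against 5 and by -1.45 ± 0.12 in 7 against 1 (adjusted p 2.43e-09 and 6.34e-09), while mice 1 and 5 differed by -0.07 ± 0.12 (95% interval -0.33 to 0.18, adjusted p 0.630). Akr1b10 differed by -2.38 ± 0.23 in mouse 7 against 5 and by -2.99 ± 0.23 in 7 against 1 (adjusted p 2.59e-08 and 1.42e-09). In mouse 1 against 5 it was 0.61 ± 0.23 higher (adjusted p 0.0272), a call that was lost with the mean of both probes (0.25, adjusted p 0.355) and without untreated replicate 2 of mouse 5 (0.36, adjusted p 0.0636). It was also lost without untreated replicate 1 or 3 or treated replicate 3 of mouse 1 or treated replicate 2 of mouse 5, with values from 0.53 to 0.58 and adjusted p from 0.0527 to 0.0698.

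**Figure D5:**
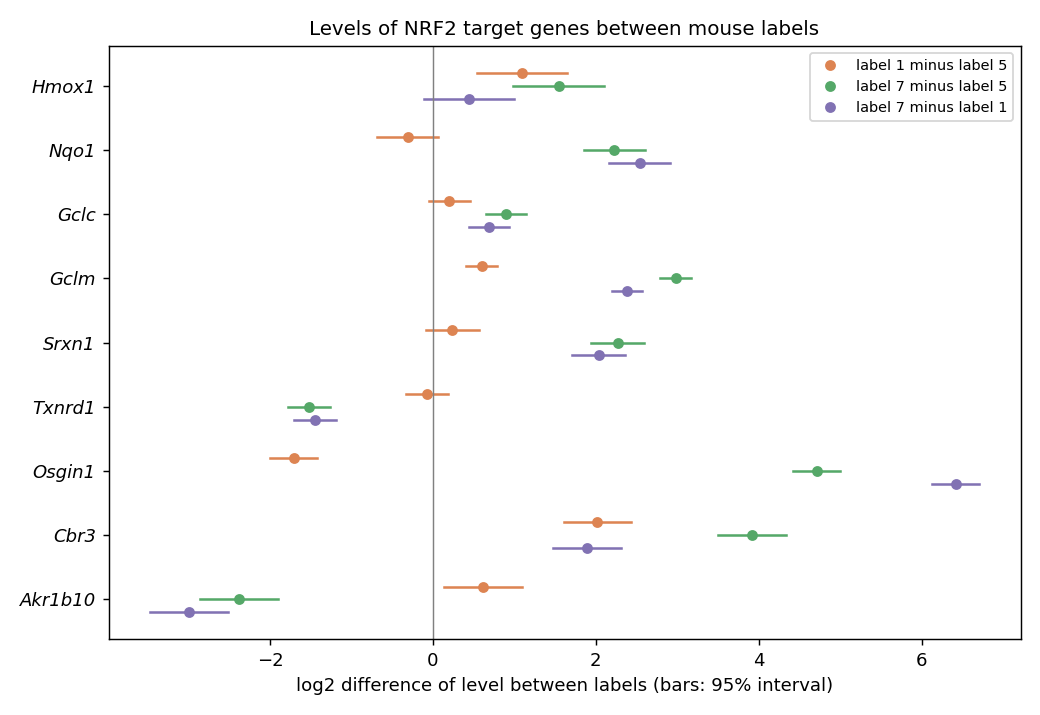
Difference in log2 level of each NRF2 target gene between mouse numbers, with 95% intervals from 6 arrays per number, for mouse 1 against 5, 7 against 5 and 7 against 1. Osgin1 reaches 6.42 in mouse 7 against 1, while Txnrd1 (-1.45) and Akr1b10 (-2.99) lie on the other side of 0.

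The genes around this programme gave no call with U73122 either. Of the regulators of NRF2, 9 of 10 passed the filter on dim probes and 0 of 9 were called in any treatment comparison. Of all genes, 0% were called over the 3 mouse numbers and 0.885%, 0.0701% and 0.57% in mice 1, 5 and 7. With shares this low, 0 calls do not set a short list apart. Without adjustment, 0, 5 and 2 of 9 regulators had p under 0.05 (limma) in mice 1, 5 and 7, against 11.5%, 11.3% and 10.3% of genes. In mouse 5, treated means were higher for 4 of 9. Nfe2l2 itself had treatment differences of 0.05, 0.14 and -0.37 in mice 1, 5 and 7, and its mean log2 level in mouse 7 was 7.65 ± 0.18 untreated and 7.28 ± 0.18 treated (SD, n = 3). Keap1 had 0.06, -0.05 and 0.04. Mafk, a small MAF partner, had -0.62 ± 0.18 in mouse 5 (adjusted p 0.205), and Sqstm1, whose p62 protein binds KEAP1, had -0.41 ± 0.14 in mouse 5 and 0.41 ± 0.14 in mouse 7 (adjusted p 0.281 in both).

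In the lists of enzymes, 0 of 17 tested genes of glutathione supply and use, 0 of 8 of the thioredoxin and peroxiredoxin group, 0 of 4 of NADPH supply, 0 of 8 of haem and iron and 0 of 7 of quinone and carbonyl detoxification were called in any treatment comparison. Between 0% and 0.885% of all genes were called in these comparisons, so 0 calls do not set these lists apart. Me1, the cytosolic malic enzyme that makes NADPH, came closest to the threshold, with 0.91 ± 0.22 in mouse 1 (adjusted p 0.0610). Gstp1, a glutathione transferase, had -0.63 ± 0.16 in mouse 7 (adjusted p 0.104), and Slc3a2, the heavy chain of the cystine importer, had -0.83 ± 0.21 in mouse 5 (adjusted p 0.158). Next in the glutathione list were Gsta3, with 0.77 ± 0.27 in mouse 1 (adjusted p 0.249), and Gss, with 0.47 ± 0.16 in mouse 5 (adjusted p 0.272). In mouse 1 Gss had -0.36 ± 0.16 (adjusted p 0.397). Blvrb, a biliverdin reductase, had 0.46 ± 0.12 in mouse 5 (adjusted p 0.176), Ugt1a6a, a glucuronosyltransferase, had -0.73 ± 0.23 in mouse 7 (adjusted p 0.195), and Txnip, the thioredoxin-binding protein, had 0.79 ± 0.30 in mouse 7 (adjusted p 0.336). These values come from several lists and were picked by their p. They point in both directions, and none passed.

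The levels of these lists also differed between mouse numbers. In mouse 7 against 5, where 80.5% of all genes were called, 13 of 17 genes of glutathione supply and use were higher and 3 lower at an adjusted p under 0.05, with a median of 2.54 on the log2 scale, and 7 of 7 of quinone and carbonyl detoxification were higher, with a median of 2.24. The regulators of NRF2 had 3 higher and 6 lower of 9, with a median of -0.71, and the thioredoxin and peroxiredoxin group 3 higher and 3 lower of 8. The medians stand beside -0.02 for all genes. In mouse 7 against 1, where 75.7% of all genes were called, 12 of 17 genes of glutathione supply and use were higher and 4 lower (median 1.35), and 4 of 7 of quinone and carbonyl detoxification were higher (median 0.45). The regulators had 4 higher and 4 lower of 9 (median -0.04), and the thioredoxin and peroxiredoxin group 1 higher and 6 lower of 8 (median -0.77). In mouse 1 against 5, where 60.7% of all genes were called, that group had 8 of 8 higher (median 0.70), glutathione supply and use 9 of 17 higher (median 0.47), quinone and carbonyl detoxification 6 higher and 1 lower of 7 (median 1.06), and the regulators 6 of 9 lower (median -0.47).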

How the data were processed

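Total RNA of 18 samples was amplified to biotin-labelled cRNA and read on Illumina mouse arrays, per the labels' protocols. Per the file headers, the authors deposited an average intensity per probe and array, with its detection p-value, for 45281 probes. From 23.2% to 30.9% of an array's intensities lie below 0, so background had already been subtracted. Software and genome build were not given in the sources used here, and no probe coordinates are printed. Detected probes made up 38.2% to 44.2% of an array, and the number of arrays limits the precision.

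Intensities were background corrected with the detection p-values, quantile normalized and taken to log2 by the neqc steps of limma 3.58.1 (R 4.3.3), with an offset of 16. A probe was kept if some group had it detected (p under 0.05) on each of its 3 arrays (21193 probes, 17983 with 1 symbol), and each of 11406 genes was represented by its brightest probe. Symbols came from the platform annotation, with 34885 probes having 1 symbol, 18 several and 10378 none. Treatment over 3 mouse numbers was fitted on 6 profiles, each the mean of 3 arrays, with the mouse number as a block. Treatment in each mouse number, its difference between mouse numbers and the levels were fitted on 18 arrays with a mean per group. All limma fits used an intensity trend, two-sided tests and Benjamini-Hochberg adjustment over all genes, with a threshold of 0.05. Scripts were tested on simulated data. Where no array of a group detected a probe, its fold is a bound, taken from the lowest signal among detected probes. Errors after ± are limma standard errors unless SD is written.

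The target genes and the lists beside them were chosen with earlier results of these data known. All 10 target genes were to be named, with Nfe2l2 and Keap1. Of each pathway list, up to 3 genes with the smallest p in each mouse number were to be added. Those nearest to the threshold within their own list are printed. The 3 most alike genes were to be named for the 4 members with the widest range about the mouse means. Replicate numbers were to be taken as pairs only if every pair of same-numbered arrays deviated together with r above 0.1, which did not hold. Alternatives covered background correction, scaling, filters, probes, variance prior, threshold, blocks and arrays left out. Promoters came from RefSeq on GRCm38.p6, matched by symbol. A further part of the genotype, shared by all groups, is not reported here.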

Additional observations from a re-analysis of the deposited data

How the results depend on the processing

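Across 1864 recomputed values of single genes, 1811 kept their direction and side of the threshold and 53 did not. For treatment, 0 of 9 genes were called in every comparison and alternative run, except without untreated replicates 1 and 3 of mice 1 and 5, where 1 was called in mouse 1 and 1 in mouse 5, both times Akr1b10 (1.08 and 1.47). That alternative leaves 1 untreated array in each, and it called 625 and 927 of all 11406 genes. The levels gave 3, 4 and 4 calls (mouse 1 against 5, 7 against 5, 7 against 1) when probes had to be detected at p under 0.01 on all arrays, since 4 of the 9 genes were then tested. Of all 6311 genes then tested, 4411, 5059 and 4890 were called. Leaving out each replicate in turn gave 4 to 6, 9 to 9 and 8 to 9 calls. Of all 11406 genes, 6660 to 6981, 8947 to 9234 and 8391 to 8751 were called in those runs. On untreated arrays alone, in mouse 1 against 5 Hmox1 (0.75) and Akr1b10 (0.62) lost their calls and Gclc (0.42) gained one.

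Small differences changed sign, none of them past the threshold, and the cause was not tested. Without untreated replicates 1 and 3 of mice 1 and 5, the values over 3 mouse numbers were -0.029 for Gclm, 0.22 for Srxn1 and 0.071 for Txnrd1, that of Osgin1 in mouse 1 was -0.089, and those in mouse 5 were 0.22 for Hmox1, 0.023 for Nqo1, 0.40 for Srxn1 and 0.036 for Txnrd1. Txnrd1 in mouse 1 against 5 became 0.013. With median centring, Srxn1 (0.019) and Txnrd1 (0.027) over 3 mouse numbers, Gclm in mouse 5 (0.081) and Txnrd1 in mouse 1 against 5 (0.019) turned. Without mouse 1 Srxn1 was 0.090, and without mouse 5 Srxn1 was 0.069 and Txnrd1 0.043. Without untreated replicate 2 of mice 1 and 5, in mouse 5 Gclm was 0.10 and Akr1b10 -0.034. With the mean of probes Srxn1 in mouse 1 against 5 was -0.35.

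Leaving out 1 replicate at a time gave ranges that crossed 0 for Srxn1 over 3 mouse numbers (-0.12 to 0.049). In mouse 1 this held for Hmox1 (-0.047 to 0.98), Gclm (-0.0040 to 0.072) and Osgin1 (-0.015 to 0.15). In mouse 5 it held for Hmox1 (-0.42 to 0.028), Nqo1 (-0.23 to 0.25), Gclm (-0.12 to 0.10), Srxn1 (-0.50 to 0.0079) and Akr1b10 (-0.034 to 0.74), in mouse 7 for Nqo1 (-0.25 to 0.18), and for the level of Txnrd1 in mouse 1 against 5 (-0.14 to 0.0050).

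Of 9 same-numbered pairs of treated and untreated arrays, 6 had r above 0.1 (range -0.04 to 0.28), and 6 of 9 treated arrays were most alike the untreated array of their own number, a hint from the data and not from the design. With the replicate number as a replicate block, 0 of 9 genes were called in any treatment comparison, Akr1b10 having an adjusted p of 0.275 over 3 mouse numbers. Counts over all genes moved from 101 to 188 in mouse 1, 8 to 5 in mouse 5, 65 to 72 in mouse 7 and 43 to 79 for the difference between mouse numbers. Over all alternatives they ran from 1 to 625 in mouse 1, 1 to 927 in mouse 5, 10 to 130 in mouse 7, 11 to 892 for the difference between mouse numbers and 0 to 4 over the 3 mouse numbers. Low signal limits Hmox1 and Nqo1 in mouse 5 and Nqo1 and Osgin1 in mouse 1, and 3 arrays per group limit all genes.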
